A study of Mus musculus with 2 samples.

Results

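Markers of the endothelium, the endocardium and the lymphatic vessels were followed in embryonic mouse heart as a set of 37 genes. The set was taken by gene name, with each identifier in the deposited gene tables matched to its GENCODE M21 symbol, and 37 of the 37 were found among 43346 rows with an Ensembl gene identifier. The tables hold total RNA sequencing of hearts from B6NCrl embryos at embryonic day 16.5, pooled from males and females and described in the labels as healthy, with no genetic change or treatment named. They form 1 group, E16.5 heart, of 2 libraries: replicate 2, from the hearts of 41 embryos, and replicate 1, from a pool whose number of embryos the labels do not give. The labels give the libraries separate biosamples and the same donor identifier, and nothing says whether the pools came from separate litters. No second condition is analysed here, so the questions are which of these markers the heart expressed, at what level, through which transcripts, and how far the libraries differed.

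A single layer of endothelial cells lines every blood vessel, and in the heart its counterpart, the endocardium, lines the chambers and gives rise to the valve mesenchyme. Lymphatic endothelium forms a separate vessel system that spreads over the developing heart surface. These cells share junction proteins, sialomucins, growth factor and lipid receptors and transcription factors of the ETS and basic helix-loop-helix families, and they differ in a smaller group of genes such as Nfatc1 in the endocardium and Lyve1 in lymphatic vessels.

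Replicate 2 held 40360242 estimated counts and replicate 1 held 37160624, of which the spike-in RNAs took 3.41% in replicate 2 and 1.62% in replicate 1. The 37 markers together held 96180 estimated counts in replicate 2 and 94859 in replicate 1, or 0.247% (replicate 2) and 0.259% (replicate 1) of those on mouse genes. Levels are given in TPM, the authors' length-corrected relative abundance of transcripts, so that different genes can be set side by side. Markers of heart muscle were abundant, with summed levels of 37538 TPM in replicate 2 and 38479 TPM in replicate 1 over 8 genes. In bulk tissue, fewer cells of a type and less RNA per cell cannot be told apart. Differences between the libraries stand in a later paragraph. The smallest two-sided p that an exact sign-flip test could give over 2 libraries is 0.5, so no test between genes or libraries was made, and nothing shows whether the spread between the libraries is biological or technical.

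Nearly the whole set was expressed. Of the 37 markers, 36 reached 1 TPM in both libraries, against 59.1% of 21474 protein-coding genes, and 30 reached 10 TPM in both, against 35.6% of protein-coding genes. The median marker stood at 22.4 TPM (mean of the libraries), at percentile 75.9 of all protein-coding genes, while the 12987 protein-coding genes whose mean reached 1 TPM had a median of 15.3 TPM. Levels ran from 231 TPM ± 7.93 for Fabp4 down to 0.88 TPM ± 0.255 for Tal1 (SD, n = 2), a 263-fold range. Tal1 was the exception to the expression threshold, with 0.70 TPM in replicate 2 and 1.06 TPM in replicate 1. Reln passed it only with its transcripts of a non-coding class. Its protein-coding transcripts summed to 0.45 TPM in replicate 2 and 0.44 TPM in replicate 1.

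**Figure D1:**
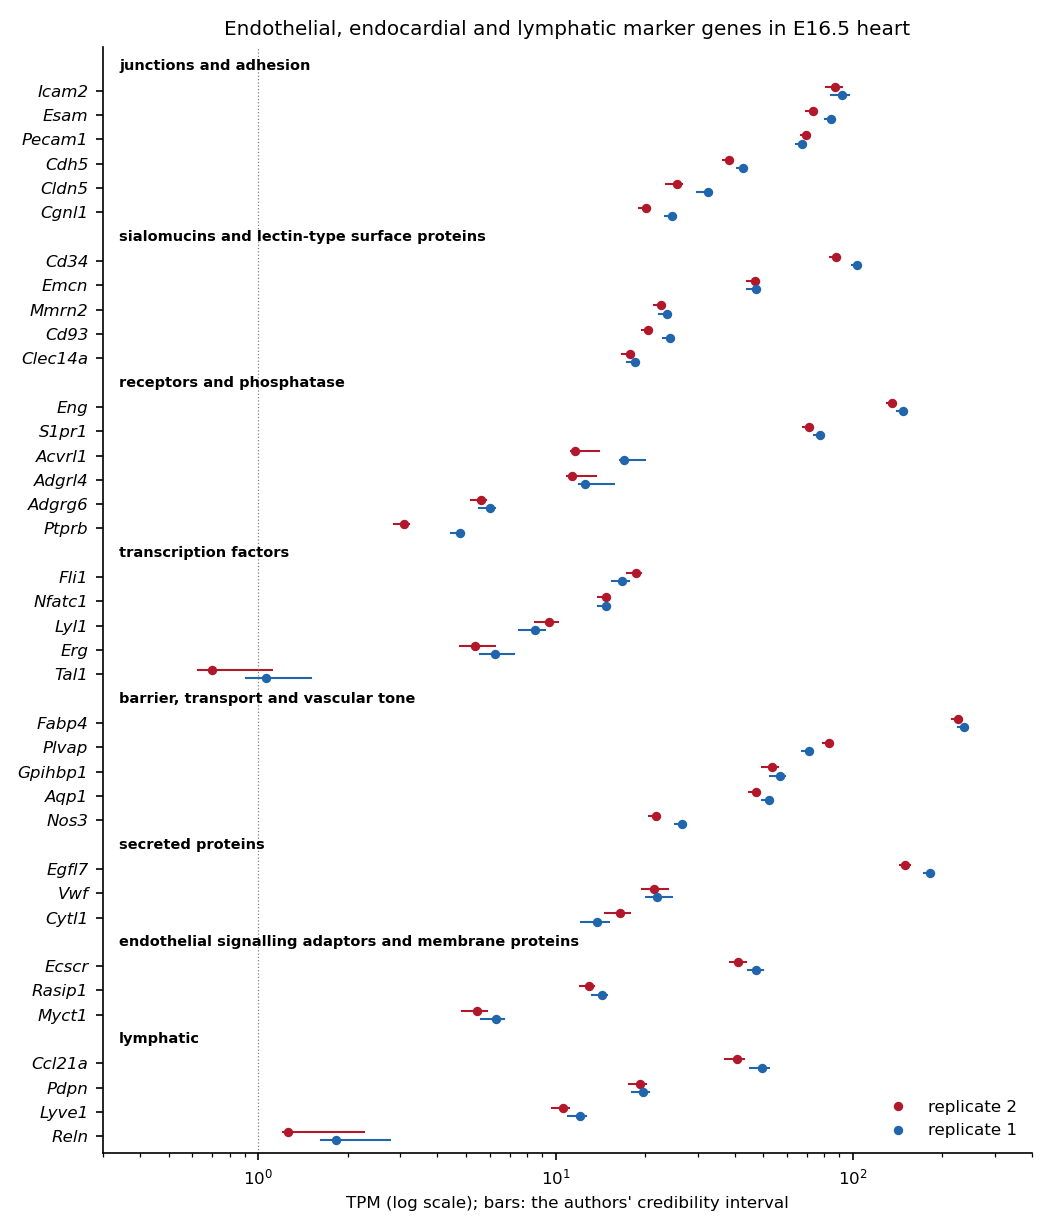
TPM (log axis) of each of the 37 marker genes in replicate 2 (red, upper point of each pair) and replicate 1 (blue, lower point), grouped by role, with the authors' credibility intervals as bars and a dotted line at 1 TPM. Fabp4, Egfl7 and Eng stood above 100 TPM in both libraries, and Tal1 lay at the low end with 0.70 and 1.06 TPM.

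The order of levels was fixed in part. Of the 36 neighbouring pairs in the ranking by mean TPM, 23 kept their order in both libraries, and in 10 the credibility intervals of the neighbours were apart in both. Fabp4, Egfl7, Eng and Cd34 held the first places in that order, and each step among them was apart in both libraries. The place of Egfl7 rests in part on transcripts of a non-coding class. Its protein-coding transcripts alone had 81.8 TPM in replicate 2 and 109.6 TPM in replicate 1. Those of Eng had 130.4 and 140.9 TPM, and those of Cd34 had 85.65 and 101.8 TPM. At the low end, the steps down the order Adgrg6, Ptprb, Reln and Tal1 were apart as well. The step from Reln to Tal1 takes in non-coding transcripts of Reln. Its protein-coding transcripts, at 0.45 TPM in replicate 2 and 0.44 TPM in replicate 1, lay below those of Tal1 (0.7 and 1.06 TPM). The other 4 steps that were apart lay in between, at Pecam1 over Gpihbp1, Cdh5 over Cldn5, Cldn5 over Nos3 and Lyl1 over Myct1. Elsewhere, neighbours such as Cgnl1 and Cd93 (22.4 and 22.3 TPM) or Erg and Adgrg6 (5.81 TPM each) traded places between the libraries and did not differ beyond their spread.

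Junction and adhesion genes were among the higher markers, with a median of 54.5 TPM over 6 genes. Icam2, an adhesion molecule present on resting endothelium, had 87.0 TPM in replicate 2 and 91.7 TPM in replicate 1. Esam, an immunoglobulin-type protein of tight junctions, had 73.2 TPM in replicate 2 and 84.4 TPM in replicate 1. Pecam1, the homophilic adhesion molecule widely used to stain vessels, had 69.7 TPM in replicate 2 and 67.3 TPM in replicate 1. These 3 stood above the classical junction cadherin and claudin in each library. Cdh5, the cadherin of endothelial adherens junctions, had 38.4 TPM in replicate 2 and 42.7 TPM in replicate 1. Cldn5, the claudin that seals endothelial tight junctions, had 25.6 TPM in replicate 2 and 32.4 TPM in replicate 1, and the tight junction linker Cgnl1 had 20.1 TPM in replicate 2 and 24.6 TPM in replicate 1. The log2 ratio of Cdh5 over Pecam1 was -0.76 ± 0.145 (TPM + 0.1, SD, n = 2), and that of Cldn5 over Esam was -1.44 ± 0.0955. In both pairs the intervals of the genes were apart in each library.

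Among the sialomucins and lectin-type surface proteins, Cd34 led. Cd34 (ENSMUSG00000016494.5, mm10 chromosome 1, 194938819 to 194961279, + strand), a sialomucin of vascular and blood progenitor cells, had 87.3 TPM in replicate 2 and 103 TPM in replicate 1. Emcn, the endothelial sialomucin endomucin, had 47.0 TPM in replicate 2 and 47.2 TPM in replicate 1, so that its log2 ratio over Cd34 was -1.01 ± 0.167. The other 3 form a known group, since the lectin-type receptors Cd93 and Clec14a both bind the matrix protein Mmrn2. They lay close together: Mmrn2 had 22.7 TPM in replicate 2 and 23.7 TPM in replicate 1, Cd93 had 20.5 and 24.2 TPM in the same order, and Clec14a had 17.7 and 18.5 TPM. Clec14a over Mmrn2 gave a log2 ratio of -0.36 ± 0.0035, the tightest of the 15 gene pairs examined, and Cd93 over Clec14a gave 0.30 ± 0.128.

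The 6 receptors covered a wide range. Eng (ENSMUSG00000026814.12, mm10 chromosome 2, 32646595 to 32682669, + strand), the endothelial co-receptor for bone morphogenetic proteins, had 135 TPM in replicate 2 and 147 TPM in replicate 1. Acvrl1, the signalling receptor that Eng assists, had 11.6 TPM in replicate 2 and 16.97 TPM in replicate 1. Eng was therefore 9.98-fold higher than Acvrl1 (log2 ratio 3.32 ± 0.302), and the intervals were apart in both libraries. Their ligands were unequal: Bmp10, made by heart muscle, had 6.15 TPM in replicate 2 and 4.00 TPM in replicate 1, and Gdf2, which the liver makes, had 0.15 TPM and 0.14 TPM, beside 4 liver genes that summed to 30.6 and 20.8 TPM. By TPM, 1 of these liver genes was higher in replicate 2 (Apoa1, 16 and 4.88 TPM) and 3 were lower, with Afp nearly level. S1pr1, the sphingosine 1-phosphate receptor that stabilises vessels, had 71.1 TPM in replicate 2 and 77.4 TPM in replicate 1. Of the enzymes and carriers that supply its ligand, Sphk1 had 2.86 TPM in replicate 2 and 3.72 TPM in replicate 1, and the exporter Spns2 had 1.43 and 3 TPM.

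The vascular phosphatase Ptprb and the 2 adhesion G protein-coupled receptors were low. Ptprb, which removes phosphate from the angiopoietin receptor Tek, had 3.09 TPM in replicate 2 and 4.78 TPM in replicate 1. Tek itself had 31.3 TPM in replicate 2 and 33.6 TPM in replicate 1, so that Ptprb was 8.24-fold lower (log2 ratio -3.04 ± 0.361). Adgrl4, an endothelial receptor, had 11.4 TPM in replicate 2 and 12.6 TPM in replicate 1, and Adgrg6, a receptor also known from Schwann cells, had 5.60 and 6.02 TPM.

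Transcription factors were the lowest of the 8 role groups by median, at 9.02 TPM over 5 genes. Fli1, an ETS factor of endothelium and blood, had 18.6 TPM in replicate 2 and 16.7 TPM in replicate 1. Its close relative Erg had 5.37 TPM in replicate 2 and 6.25 TPM in replicate 1, and Fli1 was 3.01-fold higher (log2 ratio 1.59 ± 0.258). Nfatc1, the calcium-regulated factor of the endocardium and forming valves, had 14.8 TPM in each library (14.76 in replicate 2 and 14.80 in replicate 1). The helix-loop-helix factor Lyl1 had 9.52 TPM in replicate 2 and 8.52 TPM in replicate 1. Tal1, its relative that starts the blood and endothelial programme, was 9.45-fold lower than Lyl1, with intervals apart in both libraries (log2 ratio of Lyl1 over Tal1 3.24 ± 0.491). With 1 in place of 0.1 added to TPM, which weighs on genes as low as Tal1, this log2 ratio was 2.42. The partners with which Tal1 and Lyl1 form complexes were higher, with 14.1 TPM in replicate 2 and 14.4 TPM in replicate 1 for Lmo2, 55.4 and 70.0 TPM for Ldb1, and 33.5 and 39.5 TPM for Tcf3. Blood cells use Tal1, Lyl1 and Fli1 as well. Red cell markers stood at summed levels of 66003 TPM in replicate 2 and 78158 TPM in replicate 1 over 10 genes, and their part in these levels was not tested.

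Genes of barrier, transport and vascular tone had a median of 55.0 TPM over 5 genes. Fabp4 (ENSMUSG00000062515.3, mm10 chromosome 3, 10204088 to 10208576, - strand), the fatty acid binding protein of capillary endothelium and fat cells, was the highest marker, with 226 TPM in replicate 2 and 237 TPM in replicate 1. The 4 fat cell markers Adipoq, Plin1, Cfd and Lep lay at or below 0.09 TPM in each library, and Lep was listed at 0 counts, with an authors' interval that reached 0.322 TPM in replicate 2 and 0.353 TPM in replicate 1. Gpihbp1, which carries lipoprotein lipase across the capillary wall, had 53.3 TPM in replicate 2 and 56.6 TPM in replicate 1, a log2 ratio over Fabp4 of -2.07 ± 0.0114. Its cargo Lpl had 171 TPM in replicate 2 and 165 TPM in replicate 1.

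Plvap, the protein of endothelial diaphragms, had 82.9 TPM in replicate 2 and 71.2 TPM in replicate 1. The water channel Aqp1, also a red cell protein, had 47.0 TPM in replicate 2 and 52.4 TPM in replicate 1. Nos3, the endothelial nitric oxide synthase, had 21.7 TPM in replicate 2 and 26.6 TPM in replicate 1. Of these 5 genes, Plvap alone was higher in replicate 2 by TPM, a scale on which 57.9% of all genes tested were lower. Cav1, the caveolar protein that binds Nos3, stood above all 37 markers at 319 TPM ± 12.9.

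Secreted proteins were led by Egfl7 (ENSMUSG00000026921.14, mm10 chromosome 2, 26580014 to 26593120, + strand), an endothelial matrix protein whose gene also carries the microRNA miR-126. Egfl7 had 149.7 TPM in replicate 2 and 181 TPM in replicate 1. Vwf, the clotting protein stored in endothelium and platelets, had 21.4 TPM in replicate 2 and 21.9 TPM in replicate 1. Cytl1, a small secreted protein, had 16.5 TPM in replicate 2 and 13.8 TPM in replicate 1. Platelet-line markers were detected beside Vwf, with summed levels of 40.9 TPM in replicate 2 and 43.0 TPM in replicate 1 over 6 genes, led by Pf4 at 27.4 and 27.1 TPM. Their part in the level of Vwf was not tested. Vwf and Nos3 were the only pair of the 15 that was not called, with a log2 ratio of -0.15 ± 0.187. That ratio takes in short non-coding transcripts of Vwf: its transcripts longer than 8000 nt summed to 6.5 TPM in replicate 2 and 7.91 TPM in replicate 1, below Nos3 in both.

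Egfl7 had 19 transcripts in the deposited tables, more than any other marker, and the RefSeq table holds 3 start sites for it. No promoter window was found for Fabp4, the highest marker. The 3 promoter windows of Egfl7 are shown here, and the share of TPM estimated for annotated transcripts at each start follows. Each is the RefSeq window on GRCm38.p6 of 250 bases before to 50 bases after the start, read on the gene's strand, and capitals mark AGGAAG or CCGGAA, core words bound by ETS factors such as Erg and Fli1, on either strand.
Egfl7, start 1, chr2:26580833-26581132, + strand: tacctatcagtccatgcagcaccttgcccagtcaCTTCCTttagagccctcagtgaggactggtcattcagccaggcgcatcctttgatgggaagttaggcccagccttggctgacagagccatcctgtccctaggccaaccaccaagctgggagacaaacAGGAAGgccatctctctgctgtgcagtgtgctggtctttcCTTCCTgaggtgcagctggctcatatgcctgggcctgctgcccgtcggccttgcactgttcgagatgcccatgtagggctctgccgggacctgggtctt
Egfl7, start 2, chr2:26583615-26583914, + strand: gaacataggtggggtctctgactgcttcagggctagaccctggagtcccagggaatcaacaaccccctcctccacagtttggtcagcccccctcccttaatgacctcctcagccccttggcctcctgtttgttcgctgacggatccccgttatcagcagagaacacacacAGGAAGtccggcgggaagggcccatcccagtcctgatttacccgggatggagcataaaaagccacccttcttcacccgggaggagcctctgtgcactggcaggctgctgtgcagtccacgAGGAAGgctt
Egfl7, start 3, chr2:26586386-26586685, + strand: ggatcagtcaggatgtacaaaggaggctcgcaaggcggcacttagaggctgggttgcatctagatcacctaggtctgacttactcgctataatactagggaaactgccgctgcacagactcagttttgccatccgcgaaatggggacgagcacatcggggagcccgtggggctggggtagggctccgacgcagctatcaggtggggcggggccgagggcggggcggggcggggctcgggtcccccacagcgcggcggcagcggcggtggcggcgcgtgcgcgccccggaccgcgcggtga

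Transcripts that begin within 100 bases of the second of these starts held 39.2% of the TPM of Egfl7 in replicate 2 and 40.5% in replicate 1, and 57.7% and 60.1% of its counts. The first start held 1.51% of the TPM in replicate 2 and 2.12% in replicate 1, and the third held 4.83% and 1.73%. The second window holds 2 of the ETS words, the first 3 and the third none. What remained, 54.5% of the TPM in replicate 2 and 55.7% in replicate 1, lay on transcripts that begin further inside the gene than all 3 starts.

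The start windows of 2 further highly expressed markers are shown for comparison with that of Egfl7, with the same ETS words in capitals.
Eng, chr2:32646345-32646644, + strand: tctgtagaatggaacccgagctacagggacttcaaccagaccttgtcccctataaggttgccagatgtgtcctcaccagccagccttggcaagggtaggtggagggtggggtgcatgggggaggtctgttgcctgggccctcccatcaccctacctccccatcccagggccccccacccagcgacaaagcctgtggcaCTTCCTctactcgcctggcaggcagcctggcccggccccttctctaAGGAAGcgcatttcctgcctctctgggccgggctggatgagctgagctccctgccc
Cd34, chr1:194938571-194938870, + strand: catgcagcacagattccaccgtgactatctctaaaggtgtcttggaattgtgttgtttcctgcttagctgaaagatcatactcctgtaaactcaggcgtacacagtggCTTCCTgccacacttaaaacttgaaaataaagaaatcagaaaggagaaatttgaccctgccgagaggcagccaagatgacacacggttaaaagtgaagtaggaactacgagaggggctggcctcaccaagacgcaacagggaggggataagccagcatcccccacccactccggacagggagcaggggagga

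Eng has 2 of the words, which begin 52 and 6 bases before the start, and Cd34 has 1, which begins 142 bases before it. Nearly all of the TPM of both genes came from transcripts at these starts, with 95.0% in replicate 2 and 94.5% in replicate 1 for Eng and 98.8% and 99.1% for Cd34. Windows were available for 19 of the 37 markers, 24 windows in all, of 32851 in the table. AGGAAG on either strand was found in 12 of the 24, against 35.4% of all windows, and CCGGAA in 3, or 12.5%, against 14.9%; the ends of these words can overlap. The GATA word AGATAA was found in 12.5% of the marker windows against 11.2% of all, the E-box CAGCTG in 12.5% against 16.3%, and TATAAA in 8.33% against 13.6%. The median GC content was 58.3% in the marker windows and 52.7% in all. These matches describe letters in the windows and not binding.

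Several of the inner transcripts of Egfl7 begin next to the microRNA hairpin. The hairpin of Mir126a lies at chr2:26591357-26591429 (GRCm38.p6, + strand) in an intron of the full-length Egfl7 transcripts. Its mature product is shown with the seed, bases 2 to 8, in capitals.
mmu-miR-126a-3p: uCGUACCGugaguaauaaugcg

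Egfl7-211, which starts 5 bases after the end of the hairpin, had 7.67 TPM in replicate 2 and 13.5 TPM in replicate 1. Egfl7-214, a single-exon transcript of the retained intron class that starts 17 bases after it, had 22.3 TPM in replicate 2 and 24.8 TPM in replicate 1. Together, the 5 transcripts annotated to start after the hairpin held 43.6% of the TPM of Egfl7 in replicate 2 and 41.9% in replicate 1. Of these, Egfl7-208 had 0 counts. The highest, Egfl7-213 (536 nt), held 17.95% of the TPM in replicate 2 and 17% in replicate 1, but 9.01% and 8.56% of the counts. Egfl7-214 (845 nt) held 14.9% and 13.7% of the TPM and 12.8% and 11.8% of the counts. Egfl7-206, a retained intron transcript and the only one with the hairpin inside an exon, had 6.01 TPM in replicate 2 and 4.21 TPM in replicate 1. The row of Mir126a itself is listed at 0 counts in both libraries. At 73 nt it lies below the length of RNA that was kept, so this row does not measure the microRNA.

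Among the 3 signalling and membrane proteins, Ecscr, a cell surface regulator of endothelial migration, had 41.0 TPM in replicate 2 and 47.3 TPM in replicate 1. Rasip1, which acts on small GTPases while vessels form a lumen, had 13.0 TPM in replicate 2 and 14.4 TPM in replicate 1. Its binding partners Arhgap29 and Radil had 27.4 and 7.07 TPM in replicate 2, and 32.3 and 9.83 TPM in replicate 1. Myct1, a small membrane protein of endothelial cells, had 5.44 TPM in replicate 2 and 6.28 TPM in replicate 1. By TPM, all 3 genes of this group were lower in replicate 2, as were 57.9% of all genes tested.

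The 4 lymphatic markers ranged from 45.1 TPM to 1.54 TPM. Ccl21a, the chemokine that draws Ccr7-bearing leukocytes to lymphatic vessels, had 40.7 TPM in replicate 2 and 49.4 TPM in replicate 1. Pdpn, the podoplanin of lymphatic endothelium, had 19.2 TPM in replicate 2 and 19.7 TPM in replicate 1, and Lyve1, the hyaluronan receptor, had 10.6 and 12.1 TPM. Reln, a large secreted protein of lymphatic endothelium and neurons, had 1.26 TPM in replicate 2 and 1.82 TPM in replicate 1. Pdpn was 1.71-fold higher than Lyve1 (log2 ratio 0.77 ± 0.105). The Reln receptor Vldlr had 25.8 TPM in replicate 2 and 32.2 TPM in replicate 1, against which Reln was 17.9-fold lower (log2 ratio -4.16, or -3.56 with TPM + 1). That ratio takes in non-coding transcripts of Reln, whose protein-coding transcripts summed to 0.45 TPM in replicate 2 and 0.44 TPM in replicate 1. Lrp8, the other receptor of Reln, had 0.72 TPM in replicate 2 and 0.56 TPM in replicate 1.

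Each lymphatic marker is also made by other cells, and markers of several such cells were present. Ccl21a is made in the thymus, and the 10 thymus genes summed to 259 TPM in replicate 2 and 102 TPM in replicate 1. Its receptor Ccr7 had 1.18 TPM in replicate 2 and 0.58 TPM in replicate 1, so that the log2 ratio of Ccl21a over Ccr7 was 5.59 ± 0.844 (4.63 with TPM + 1). Pdpn is made by epicardium and by lung epithelium, and 6 epicardial genes summed to 154 TPM in replicate 2 and 166 TPM in replicate 1. Lyve1 is also carried by macrophages, whose 9 genes summed to 106 TPM in replicate 2 and 103 TPM in replicate 1. Reln is made by neurons, and 8 neural and glial genes summed to 18.5 TPM in replicate 2 and 15.2 TPM in replicate 1. The part of these cells in the levels was not tested. Of 7 near-identical copies of Ccl21a that were looked for, 5 were measured and 3 had counts. Gm21541 had 9.00 TPM in replicate 2 and 14.3 TPM in replicate 1, Gm13304 had 4.36 and 7.29 TPM, and Gm20878 had 1.93 and 1.59 TPM. Ccl21b and Gm10591 were listed at 0 counts, with authors' intervals that reached 3.27 TPM in replicate 2 and 3.05 TPM in replicate 1 for Ccl21b, and 2.68 and 3.08 TPM for Gm10591. Ccl21a held 72.7% of the summed TPM of itself and the 5 measured copies in replicate 2 and 68.1% in replicate 1. Its share among them is uncertain because reads from the copies can be split, and the copies not measured are left out.

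**Figure D2:**
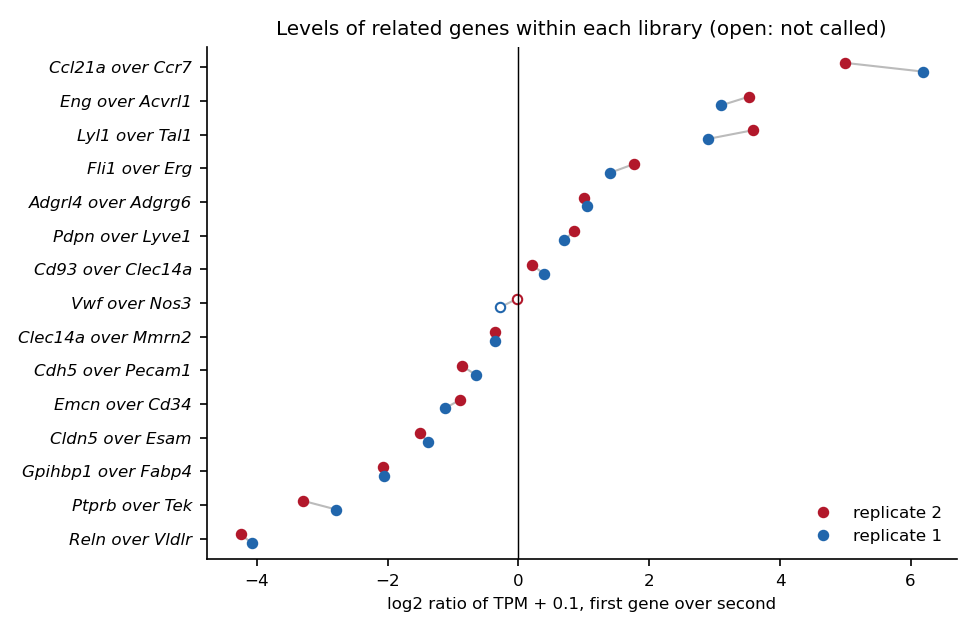
Log2 ratio of TPM + 0.1 for the 15 gene pairs, the first-named gene over the second, in replicate 2 (red) and replicate 1 (blue), with open points for the pair that was not called. The mean ratios ran from -4.16 for Reln over Vldlr to 5.59 for Ccl21a over Ccr7, and the points of Vwf over Nos3 lie next to 0.

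Of the 15 pairs, 14 were called, which required the same direction and separate intervals in both libraries. The pairs with the widest spread between libraries were Ccl21a with Ccr7 and Lyl1 with Tal1, each of which holds a gene near 1 TPM. Adgrl4 was 2.04-fold higher than Adgrg6 and gave log2 ratios of 1.01 in replicate 2 and 1.05 in replicate 1.

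Most genes of the same cells outside the 37 were detected as well. Of 25 other endothelial genes, 24 reached 1 TPM in both libraries, led by Ramp2 at 162 TPM in replicate 2 and 171 TPM in replicate 1, Ets2 at 58.3 and 59.4 TPM, Ets1 at 53.0 and 49.3 TPM and Tie1 at 41.4 and 50.8 TPM. Etv2, the ETS factor that acts at the start of vessel formation, had no count, which allows up to 0.107 TPM in replicate 2 and 0.118 TPM in replicate 1 (3 counts per library, counting error only). Of 6 other endocardial genes, 5 reached 1 TPM in both, led by the endothelin-converting enzyme Ece1 at 54.9 TPM in replicate 2 and 47.8 TPM in replicate 1 and by Notch1 at 17.4 and 15 TPM. Of 8 other lymphatic genes, 7 did, led by Prox1, the factor that sets lymphatic identity and is also expressed by heart muscle, at 13.0 TPM in replicate 2 and 14.7 TPM in replicate 1. Of 20 known partners of the markers, such as ligands and receptors, 14 did, and Adamts13, the protease that cuts Vwf, was lowest at 0.02 and 0.01 TPM. Among the other lymphatic genes, Ccbe1, which helps to activate the lymphatic growth factor Vegfc, was below 1 TPM. It had 0.17 TPM in replicate 2 and 0.27 TPM in replicate 1.

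Differences between the libraries were small for most of these markers. They were measured as the log2 ratio, replicate 2 over replicate 1, of CPM (counts relative to the library total) scaled by TMM, the trimmed mean of M-values that sets the bulk of genes level. The 17185 genes that had 10 or more counts in both libraries were tested. None of the 37 markers was more than 1.5-fold apart on this scale (1, Ptprb, was on that of TPM + 0.1), whereas 13.5% of all genes tested were (8.73% higher and 4.73% lower in replicate 2). That background was smaller for well counted genes: among the 6720 genes that reached 1000 counts in both libraries, as 26 of the markers did, 0.952% were more than 1.5-fold apart. The count of 0 is therefore near what deeply counted genes showed, but it depends on where the cut lies. Ptprb, 1.497-fold lower in replicate 2, and Acvrl1, 1.482-fold lower, lay just inside it. The log2 ratios of all genes with at least 1000 counts had an SD of 0.184. The largest ratios were those of Ptprb (-0.58), Acvrl1 (-0.57) and Tal1 (-0.41) on the lower side and of Cytl1 (0.30), Plvap (0.27), Fli1 (0.21) and Lyl1 (0.20) on the higher side.

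The direction leaned one way. Of the 37 markers, 29 were lower in replicate 2, against 50.4% of all genes tested. Of the 26 markers with at least 1000 counts in both libraries, 20 were lower, against 54.1% of all such genes. Under other scalings, between 28 (total counts) and 32 (TPM) of the 37 were lower. The median ratio of the 37 was -0.099, against -0.0018 over all genes. Single markers varied around that median with an SD of 0.191. By role, the medians ran from -0.16 for the signalling and membrane proteins and -0.15 for junction and secreted genes to 0.032 for the transcription factors. Of the 4 lymphatic markers, 4 were lower in replicate 2, with a median of -0.12, and of the 6 receptors 6 were. Among the lymphatic markers Pdpn, at -0.0018, was level with the median over all genes. The 24 tested genes of the other endothelial list had a median of -0.085, with 18 lower in replicate 2, the 8 other lymphatic genes a median of -0.32 with 7 lower, and the 6 other endocardial genes a median of 0.15 with 2 lower. Itga9, an integrin of lymphatic valves, had the largest difference among these, with 2.48 TPM in replicate 2 and 7.26 TPM in replicate 1. By the authors' intervals of TPM, which do not adjust for the larger spike-in share of replicate 2, 16 markers were apart between the libraries. Of these, 15 were lower and 1 (Plvap) was higher in replicate 2. In either direction, 26.6% of all genes tested were apart. With at least 1000 counts in both libraries, 13 of the 26 markers were apart, against 37.9% of all such genes. The share of all genes apart in each direction was not taken. By TPM, 57.9% of all genes tested were lower in replicate 2 by any amount.

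**Figure D3:**
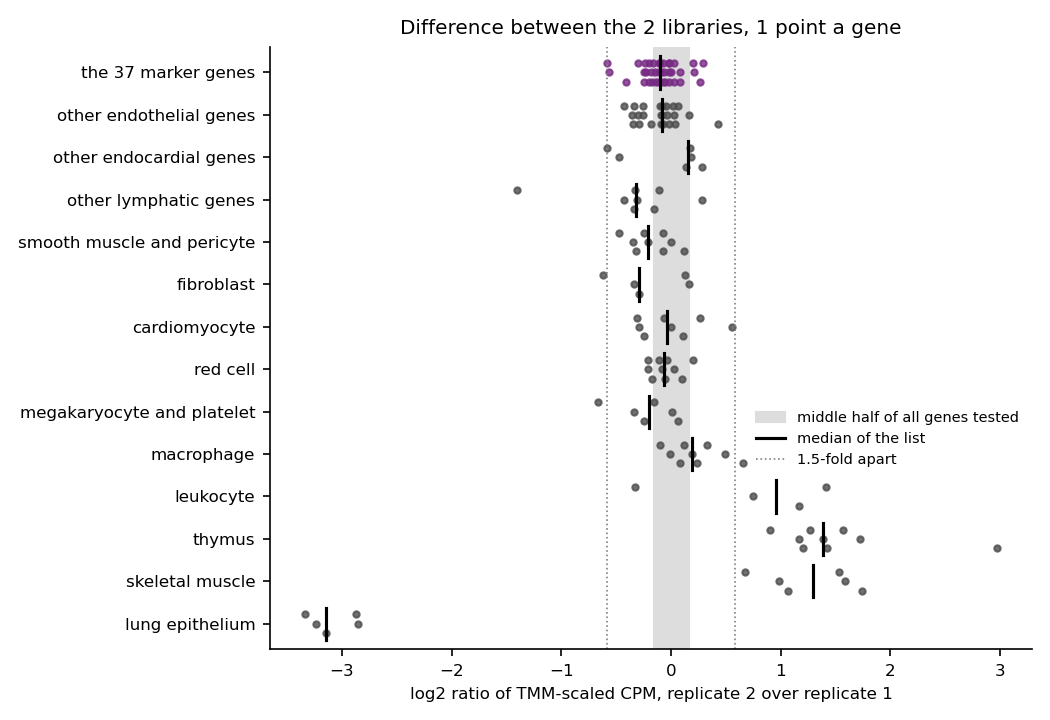
Log2 ratio of TMM-scaled CPM, replicate 2 over replicate 1, with 1 point for each tested gene of the 37 markers (purple) and of other lists (grey), black lines at list medians, a grey band over the middle of all genes tested (quartiles -0.15 and 0.16) and dotted lines at 1.5-fold. The markers lie between -0.58 and 0.30, with a median of -0.099, while the medians of lung, thymus and skeletal muscle genes are -3.15, 1.39 and 1.30.

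Markers of neighbouring organs, and most of those of leukocytes, differed far more between the libraries. The 7 lung genes summed to 107 TPM in replicate 2 and 972 TPM in replicate 1, the 10 thymus genes to 259 and 102 TPM, the 4 leukocyte genes to 177 and 92.1 TPM, and the 7 skeletal muscle genes to 56.9 and 26.3 TPM. Median log2 ratios were -3.15 for lung, 1.39 for thymus, 0.96 for leukocytes (3 of 4 higher in replicate 2, Spi1 lower) and 1.30 for skeletal muscle. Lung and thymus carry vessels of their own, and the part of that tissue in the ratios of the markers was not tested. Pdpn, which lung epithelium and epicardium make, had a ratio of -0.0018, and Ccl21a, which the thymus makes, had -0.24. Each is made by more than 1 cell type, so neither ratio measures the share of lung or thymus. Among other cells of the heart, median ratios were -0.036 for heart muscle (3 of 8 genes higher in replicate 2) and -0.21 for smooth muscle and pericytes (1 of 9 higher). They were -0.29 for fibroblasts (2 of 5 higher), 0.077 for epicardium (4 of 6 higher) and 0.19 for macrophages (7 of 9 higher).

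The transcript tables gave a further view. Of the 37 markers, 16 had a single transcript and 21 had several. The highest transcript was the same in both libraries for 21 of these 21, against 91.0% of 9314 protein-coding genes with several transcripts and 1 TPM in both libraries, and it was protein-coding in both for 19 of 21, against 89.2%. The median marker with several transcripts had 2.20% of its TPM on transcripts of a non-coding class in replicate 2 and 1.93% in replicate 1, against 6.93% and 6.80% over all such genes. Reln had 64.3% there in replicate 2 and 75.8% in replicate 1, Vwf 65.2% and 57.4%, and Egfl7 45.4% and 39.5%. The non-coding classes include retained introns, processed transcripts and targets of nonsense-mediated decay.

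**Figure D4:**
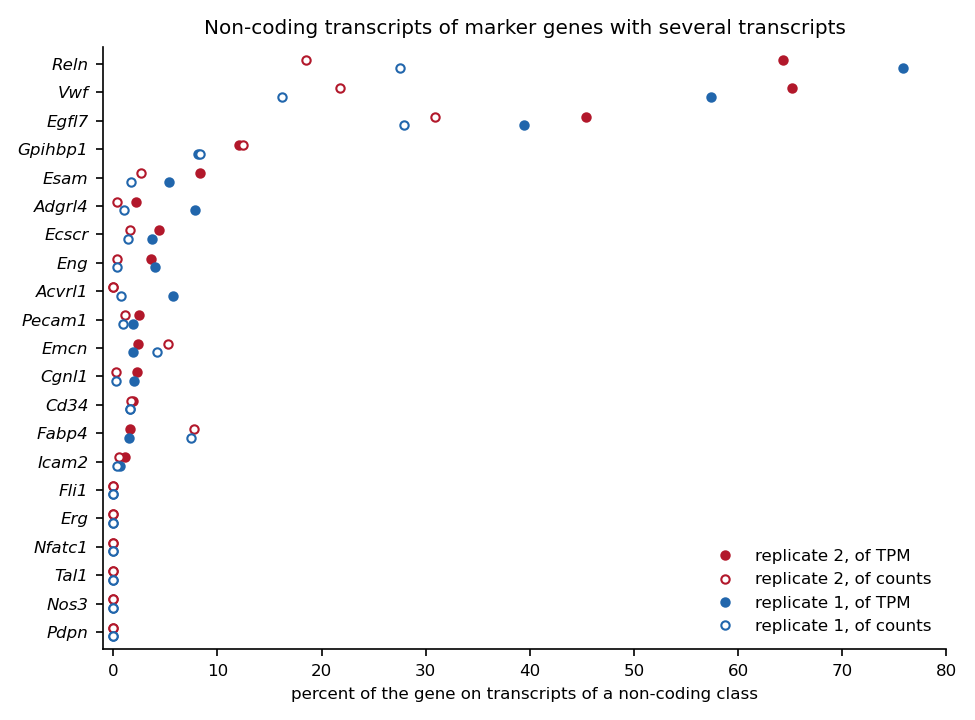
Percent of each gene's TPM (filled) and of its counts (open) on transcripts that M21 gives a non-coding class, for the 21 markers with several transcripts, in replicate 2 (red, upper) and replicate 1 (blue, lower). Reln, Vwf and Egfl7 lie far to the right by TPM, and the first 2 of them lie much further left by counts.

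For Vwf and Reln the level in TPM and the counts told of different transcripts. Vwf-209, a processed transcript of 456 nt, held 40.7% of the TPM of Vwf in replicate 2 and 37.6% in replicate 1, but only 92.3 of 2226 counts in replicate 2 and 78.2 of 2291 counts in replicate 1. In replicate 2, 75.5% of all Vwf counts lay on the 2 transcripts longer than 8000 nt, and 80.4% did in replicate 1, with a summed level of 6.5 and 7.91 TPM, so that these long transcripts made up 30.3% and 36.2% of the gene's TPM. Within them the split changed places. Vwf-203 (8834 nt) had 6.40 TPM in replicate 2 and 3.05 TPM in replicate 1. A transcript of 8817 nt that M21 does not list had 0.10 and 4.86 TPM. By posterior mean TPM the swap was smaller, with 4.77 and 2.76 TPM for Vwf-203 and 1.59 and 4.92 TPM for the other. Whether it reflects how reads were assigned between transcripts of near-equal length was not tested. Reln was alike, with Reln-205 (891 nt, processed transcript) at 35.5% of the TPM in replicate 2 and 51.6% in replicate 1 on 10.5 and 19.9 counts. The full-length Reln-207 (11699 nt) had 0.42 TPM in replicate 2 and 0.41 TPM in replicate 1, which is closer between the libraries than the gene value.

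**Figure D5:**
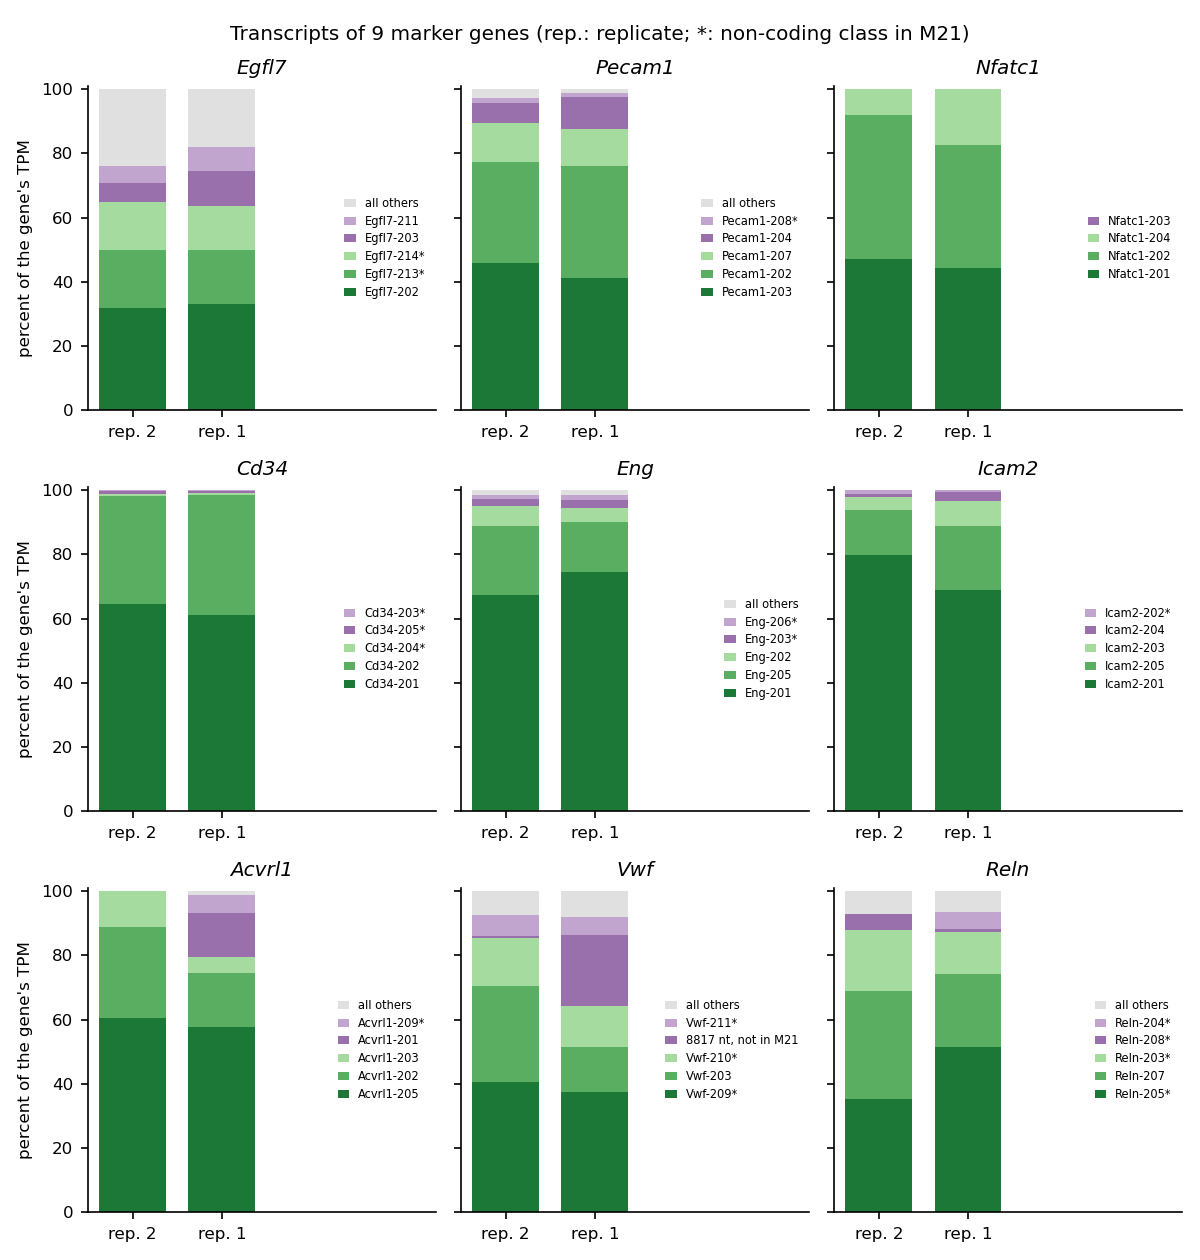
Percent of the gene's TPM on each transcript for 9 markers, in replicate 2 (left bar) and replicate 1 (right bar), with the 5 highest transcripts in colour, the rest in grey and an asterisk on non-coding classes. The highest transcript is the same in both libraries in each panel, and the shares of Acvrl1, Vwf and Reln differ most between the bars.

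Other genes split among coding transcripts. Pecam1-203, which lacks the 57-base exon at chromosome 11, 106671742 to 106671798, held 45.9% of the TPM in replicate 2 and 41.3% in replicate 1, and Pecam1-202 held 31.5% and 34.7%. Over protein-coding transcripts that span it, this exon was included in 52.8% of the TPM in replicate 2 and 57.9% in replicate 1, and a 23-base exon at 106662002 to 106662024 in 19.2% and 22.04%. The tail of the Pecam1 protein is known to be changed by splicing. Nfatc1 used both of its annotated starts. Transcripts from the upstream start held 52.9% of the TPM in replicate 2 and 55.8% in replicate 1. Nfatc1-201, from the downstream start, held 47.2% and 44.2%. Within the upstream group the shares were less even between the libraries. Nfatc1-202 held 44.7% in replicate 2 and 38.5% in replicate 1, and Nfatc1-204 held 8.13% and 17.3%. Cd34-201 held 64.7% of the TPM in replicate 2 and 61.2% in replicate 1, and Cd34-202 33.4% and 37.1%. In Eng, Eng-201 held 67.5% in replicate 2 and 74.6% in replicate 1. Acvrl1-201 was listed at 0 counts in replicate 2 and 222 counts in replicate 1. The posterior mean level of this transcript was 0.48 TPM in replicate 2 and 2.02 TPM in replicate 1. The whole gene had 946 counts in replicate 2 and 1303 in replicate 1. Genes on the opposite strand overlap some markers, and whether counting used the strand is not given in the sources used here. Lyl1 lies within Nfix (10.1 TPM in replicate 2 and 13.2 TPM in replicate 1), and the ends of Plvap, Eng, Egfl7 and Nos3 overlap Gtpbp3, Fpgs, Agpat2 and Atg9b.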

How the data were processed

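Total RNA of E16.5 mouse heart was sequenced in 2 libraries, each from a pool; per the labels, 10 ng of RNA longer than 200 nt went into each library with ERCC spike-ins. Per the file headers and notes, the authors quantified reads on mm10 with annotation M4, 1 library per table, with an aligner and quantifier not given in the sources used here. Deposited estimated counts are not normalized and need not be whole. The deposited TPM and FPKM values of the authors cover every row, spike-ins included, so a larger spike-in share lowers TPM, and short transcripts carry more error. The deposited transcript tables give the percent of each gene's TPM per transcript. The level of the deposited credibility intervals is not stated, and they cover counting and assignment error only.

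Genes and transcripts were named from GENCODE M21 (GRCm38, the same assembly as mm10). Ratios between libraries used counts rounded to whole numbers, TMM factors from edgeR 4.0.16 (R 4.3.3), 0.5 added to each count, and genes that had 10 or more counts in both libraries. A gene was called apart past 1.5-fold. Pair ratios used TPM + 0.1. DESeq2 1.42.0 size factors, posterior mean counts, total counts, other pseudocounts and leaving out each library were the alternatives. The ratio step was tested on simulated data. Red cell, lung and the other lists, 19 beside the members, are described by counts and summed levels. Named genes were all members, the genes of the pairs, and up to 5 genes a list with the highest mean TPM or under 0.1 TPM. Itga9, Ccbe1 and the partners outside the pairs were named after their values were seen. The members and lists were chosen with earlier results of these data known. Promoter windows and the microRNA are from RefSeq (GRCm38.p6). The limit for a gene with 0 counts was 3 counts, given for Etv2; for Lep and the Ccl21a copies, whose authors' intervals are wider, the interval is given instead.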

Additional observations from a re-analysis of the deposited data

How the results depend on the processing

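The median level of the 37 markers, 22.4 TPM, was 22.2 TPM with posterior mean TPM and 22.3 TPM without transcripts of a non-coding class, an alternative chosen after seeing the data. It moved to 16.2 in FPKM and to 27.9 TPM when rescaled over nuclear protein-coding genes, both by construction of the unit, and with 1 library left out it ran from 21.4 to 24.2 TPM. The number at 1 TPM or more ran from 36 to 37 with 1 library left out and was 34 at 5 TPM. No marker was more than 1.5-fold apart with TMM, DESeq2 size factors, posterior mean counts, TPM + 1, no filter on low counts or separate intervals required, and 1 marker (Ptprb) was with TPM + 0.1. The markers lower in replicate 2 numbered 29 with TMM, DESeq2 size factors and posterior mean counts, 28 by total counts and 32 by TPM, against 50.4%, 50.1%, 50.4%, 47.8% and 57.9% of all genes. The first-named gene was higher in 7 of 15 pairs, and no pair reversed. Ratios that moved by over 1.5 times were, with TPM + 1, Lyl1 over Tal1 (2.42), Reln over Vldlr (-3.56) and Ccl21a over Ccr7 (4.63); and on counts not corrected for length Emcn over Cd34 (-1.62), Fli1 over Erg (2.30), Lyl1 over Tal1 (2.17), Adgrl4 over Adgrg6 (0.30), Ptprb over Tek (-1.66) and Ccl21a over Ccr7 (4.46). Without replicate 1 or 2, Ccl21a over Ccr7 was 4.99 or 6.19. Counts of pairs, of coding highest transcripts (35) and of shared highest transcripts (37) did not move. Depth limits Tal1 (86 counts in replicate 2 and 106 in replicate 1) and Reln (189 in each). No paired analysis was possible because there is 1 group.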
